A study of Mus musculus with 9 samples.

Results

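In 509 regions of the mouse genome, 3 or more separate domains of H3K27 acetylation in WT CD8+ T cells were covered by 1 unbroken domain in CD8+ T cells that lacked Tcf1 and Lef1. A domain here is an island, a stretch of neighbouring 200-bp windows enriched for H3K27ac ChIP-seq reads over input. The regions were found by merging islands of both genotypes that shared at least 1 bp, and by keeping merged regions on chromosomes 1 to 19 that held exactly 1 dKO island and at least 3 WT islands, each narrower than 30 kb. They were 509 of 76633 merged regions in all, and 1.14% of the 44698 autosomal regions with islands in both genotypes. They are called fused regions below. The regions were chosen by the borders of the islands in both genotypes, so widths, gaps and counts of the same islands are given as a description.

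H3K27ac was measured by ChIP-seq in naive splenic CD8+ T cells, sorted as GFP+ TCRbeta+ CD62L high CD44 low to intermediate cells, from C57BL/6 mice of both sexes. Every mouse carried hCD2-Cre and the Rosa26 GFP reporter. WT mice had Tcf7+/+ and Lef1+/+ alleles, and dKO mice had Tcf7 fl/fl and Lef1 fl/fl alleles, Tcf7 being the gene of Tcf1. The hCD2-Cre transgene acts mostly in mature peripheral T cells, so the model reports on factors lost after thymic development. There were 4 WT and 3 dKO samples and 1 input of each genotype, 9 in all. Replicates of a genotype were pooled before islands were called, so each genotype has 1 list of islands, no difference between the genotypes has a replicate check, and no test was possible. All intervals below are 95% intervals for counting error only, and they are too narrow for a difference between mice.

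H3K27ac marks active promoters and enhancers. It is written by the acetyltransferases p300 and CBP, and stretches of dense acetylation over clustered enhancers, known as super-enhancers (SEs), tend to lie at genes that define a cell type. Tcf1 and Lef1 are HMG-box factors of the Wnt pathway that maintain naive and memory T cells, and Tcf1 is known to hold back effector differentiation.

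The WT list held 65563 islands with 82668007 counts over 392.7 Mb, and the dKO list held 82213 islands with 57665047 counts over 429.3 Mb. The dKO list was thus shallower, with 134.3 counts per kb of island against 210.5. The promoters of all 8 CD8+ T cell markers examined lay in islands in both lists, with medians of 447.2 counts per kb in WT and 289.8 in dKO. Of 14 promoters of CD4, B, NK, myeloid and Treg markers, 11 lay in WT islands and 12 in dKO islands, with medians of 188.4 and 141.8 counts per kb, while Ncr1 and Klrk1 of NK cells had none in either list. Foxp3 of Treg cells went the other way from the depth of the lists, with 136.9 counts per kb in WT and 247.8 in dKO, and Pax5 of B cells had an island in dKO alone, at 117.7. Tcf7 and Lef1 promoters had islands in both lists (715.9 and 650.2 counts per kb at Tcf7, 507.9 and 280.3 at Lef1), which does not check the deletion of the floxed exons. The part of depth and of other cell types in the fused regions was not tested.

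What a dKO island adds to such a region is DNA that lay between WT islands. Sequences of 6 of these bridged gaps, each the central 300 bases of the widest gap, are shown for the region with the most bridged DNA, for an upregulated transcription factor gene (Hivep3), for chemokine and chemokine receptor genes (Ccl5, Cx3cr1), and for the pair of windows with a Tcf/Lef core (P2rx7, Ikzf3). The choice among the windows was made after they were read. They are plus-strand bases of mm9. Capitals mark ATCAAAG or its reverse complement CTTTGAT, the core letters bound by Tcf/Lef factors.
Ppil1 to Mtch1 gap centre, chr17:29417751-29418050: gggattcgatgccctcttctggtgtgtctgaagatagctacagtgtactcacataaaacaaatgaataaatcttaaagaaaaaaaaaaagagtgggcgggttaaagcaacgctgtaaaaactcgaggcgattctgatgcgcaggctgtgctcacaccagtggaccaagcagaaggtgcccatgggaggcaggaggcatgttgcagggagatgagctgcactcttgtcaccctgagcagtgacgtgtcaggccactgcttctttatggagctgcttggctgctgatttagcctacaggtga
Hivep3 gap centre, chr4:119557851-119558150: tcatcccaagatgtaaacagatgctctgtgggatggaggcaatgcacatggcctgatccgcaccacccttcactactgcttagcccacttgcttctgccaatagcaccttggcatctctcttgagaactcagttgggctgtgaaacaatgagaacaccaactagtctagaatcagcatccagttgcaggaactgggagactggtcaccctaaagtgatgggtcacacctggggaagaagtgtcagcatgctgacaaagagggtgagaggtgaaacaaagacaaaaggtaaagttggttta
Ccl5 gap centre, chr11:83368151-83368450: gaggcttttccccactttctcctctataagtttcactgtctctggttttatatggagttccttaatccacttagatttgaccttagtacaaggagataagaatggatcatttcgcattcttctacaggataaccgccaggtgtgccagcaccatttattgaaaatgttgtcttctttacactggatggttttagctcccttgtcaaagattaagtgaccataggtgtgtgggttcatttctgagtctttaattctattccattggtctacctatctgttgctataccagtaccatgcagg
Cx3cr1 gap centre, chr9:119916551-119916850: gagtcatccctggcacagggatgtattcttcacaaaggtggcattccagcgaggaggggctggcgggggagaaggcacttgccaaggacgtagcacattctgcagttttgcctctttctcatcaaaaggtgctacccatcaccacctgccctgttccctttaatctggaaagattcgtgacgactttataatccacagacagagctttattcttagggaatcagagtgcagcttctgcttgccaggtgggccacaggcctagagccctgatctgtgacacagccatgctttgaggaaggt
P2rx7 gap centre, chr5:123098651-123098950: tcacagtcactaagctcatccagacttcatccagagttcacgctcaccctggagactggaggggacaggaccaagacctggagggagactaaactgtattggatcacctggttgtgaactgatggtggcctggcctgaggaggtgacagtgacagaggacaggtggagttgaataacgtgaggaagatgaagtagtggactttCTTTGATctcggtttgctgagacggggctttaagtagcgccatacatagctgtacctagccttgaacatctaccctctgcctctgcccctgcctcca
Ikzf3 gap centre, chr11:98344651-98344950: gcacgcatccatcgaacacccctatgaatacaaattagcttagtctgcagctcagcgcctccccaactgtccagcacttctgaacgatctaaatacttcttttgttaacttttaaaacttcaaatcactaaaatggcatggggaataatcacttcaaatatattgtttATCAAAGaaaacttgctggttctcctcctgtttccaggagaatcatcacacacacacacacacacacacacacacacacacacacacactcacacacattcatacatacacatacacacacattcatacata

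Among 31 different gap centres read this way, 2 held the Tcf/Lef core and 3 held TGTGGT, the core of Runx factors, with both strands searched. The windows of Ppil1 to Mtch1, Hivep3, Ccl5 and Cx3cr1 held neither, nor AGGAAGT (Ets) or TGANTCA (AP-1).

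Another 3 windows of 200 bases were chosen after the values were seen, because each lies over a differentially accessible chromatin (ChrAcc) site that fell inside a bridged gap. ChrAcc sites were mapped by the study with DNase-seq, in other libraries than those used here. C1 sites are more accessible in dKO CD8+ T cells and linked to upregulated genes, whereas C2 sites are less accessible in dKO but also linked to upregulated genes.
C1 site upstream of 1110002B05Rik, chr12:55659188-55659387: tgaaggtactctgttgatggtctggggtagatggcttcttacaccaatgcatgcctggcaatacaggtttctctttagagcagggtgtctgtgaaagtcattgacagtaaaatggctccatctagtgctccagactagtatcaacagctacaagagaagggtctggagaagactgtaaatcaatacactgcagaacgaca
C2 site near Fasl, chr1:163705435-163705634: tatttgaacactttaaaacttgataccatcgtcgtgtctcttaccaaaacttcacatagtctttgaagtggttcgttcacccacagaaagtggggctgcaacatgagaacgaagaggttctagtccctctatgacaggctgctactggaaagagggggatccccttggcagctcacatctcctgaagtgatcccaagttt
C2 site near Metrnl, chr11:121558762-121558961: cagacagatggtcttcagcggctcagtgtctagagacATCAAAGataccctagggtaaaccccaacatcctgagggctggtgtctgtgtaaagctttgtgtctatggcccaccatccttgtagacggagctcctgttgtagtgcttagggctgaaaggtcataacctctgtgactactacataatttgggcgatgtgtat

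The Metrnl window held 1 Tcf/Lef core, and the other windows held none of the 4 cores.

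Fusion was mostly of 3 WT islands. Of the fused regions, 401 (78.78%) joined 3 WT islands, 75 joined 4, 23 joined 5 and 7 joined 6, and 1 region each joined 7, 8 and 9. In all, 1684 WT islands with 2195896 counts (2.656% of WT island counts) faced 509 dKO islands with 1835737 counts (3.183%). The regions were wide, with a median of 21000 bp (quartiles 14200 and 33000 bp) and a range from 4600 to 110400 bp. WT islands covered a median of 16800 bp of a region and the dKO island 20800 bp.

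Most bridged gaps were as short as the calling allowed. Windows up to 400 bp apart are joined during calling, so that 600 bp is the smallest gap found in either list. Of 1175 bridged gaps, 599 (50.98%) measured 600 bp, 204 measured 800 bp and 79 measured 1000 bp, and the widest measured 19400 bp. The gaps added up to 1580 kb, with a median of 1800 bp for each region. In 122 regions (23.97%) all gaps were 600 bp wide, in 282 (55.4%) none was wider than 1000 bp, and 42 regions had a gap of 5 kb or more. Gaps were not the only gain: the dKO islands also reached 876 kb past outer WT borders, beyond both borders in 103 regions and beyond 1 in 228, whereas WT islands reached 261.4 kb past the dKO island.

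The opposite pattern was more frequent in the lists as deposited. In 1289 autosomal regions (2.88%), 1 WT island faced at least 3 dKO islands, each narrower than 30 kb. Among 1571 regions with 3 or more such WT islands, 509 (32.4%, Wilson interval 30.13 to 34.75) had a single dKO island, 533 had 2 and 529 had 3 or more. Among 2686 regions with 3 or more such dKO islands, 1289 (47.99%, 46.1 to 49.88) had a single WT island. The excess varied with how short gaps and small islands were handled. With islands of at least 200 counts only, 477 regions were fused and 614 showed the opposite pattern. That cut was not scaled for depth, and kept 59377 of 65563 WT islands but 55111 of 82213 dKO islands. A planned filter on counts per kb that dropped the same fraction of islands from both lists left 507 and 1281. With islands under 10 kb there were 274 and 919. In alternatives chosen after the data were seen, joining islands 600 bp apart in both lists left 552 and 857, and joining islands up to 1 kb apart left 554 and 536, and only 88 of the 509 regions lay over one of those 554. In that last setting both patterns were thus about as frequent. In a planned setting, only the list with several islands was joined up to 1 kb. It left 35 fused regions and 56 of the opposite pattern, so the balance across wider gaps depends on how islands are joined.

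The width of the gap separated the directions. Of WT gaps of 600 bp, 45.74% were bridged by a dKO island, and of dKO gaps of that width 49.98% were bridged by a WT island. The order was the same at 800 bp (34.12% and 36.57%) and 1000 bp (25.97% and 27.27%, where the intervals overlapped). From 1.2 to 2 kb it turned, with 16.99% of WT gaps and 15.77% of dKO gaps bridged, again with overlapping intervals. For gaps of 2.2 to 5 kb the shares were 7.745% and 5.397%, and for gaps of 5.2 to 20 kb they were 1.59% and 0.5182%. Short gaps were closed somewhat more often by WT islands, the deeper list, and long gaps more often by dKO islands.

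**Figure D1:**
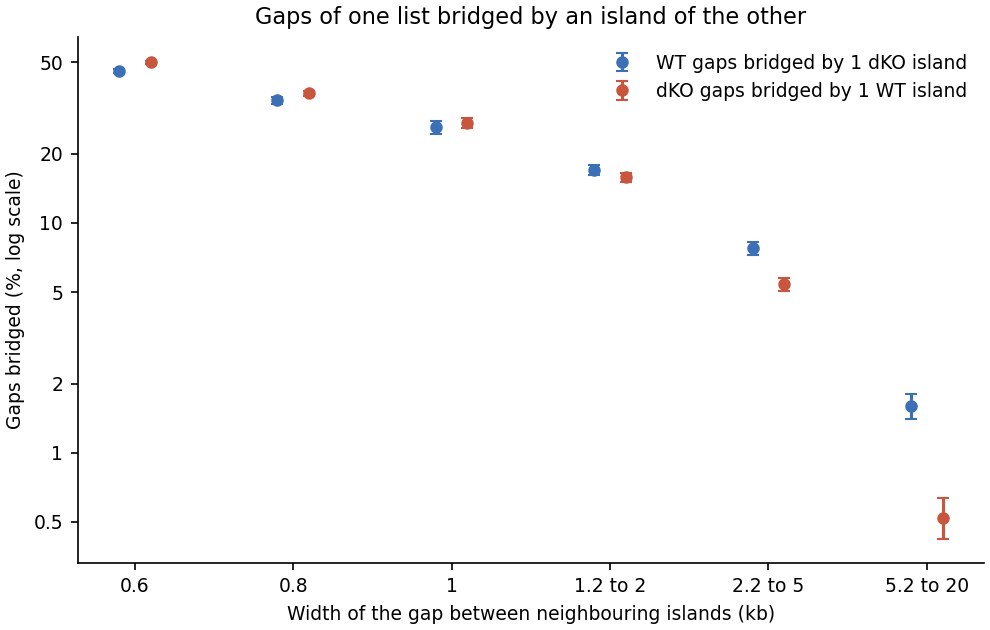
Share of gaps between neighbouring autosomal islands of one list that an island of the other list bridged (log scale), by gap width in kb. Blue points are WT gaps bridged by dKO islands, red points dKO gaps bridged by WT islands, and bars are 95% Wilson intervals. Blue lies below red at 0.6 kb (45.74% and 49.98%) and above it at 5.2 to 20 kb (1.59% and 0.5182%).

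The fused regions held more H3K27ac counts in dKO over more DNA, with little difference in density. After scaling to the island total of each list, the median log2 ratio of counts (dKO to WT) was 0.20 (interval 0.18 to 0.24, quartiles 0.04 and 0.45, range −1.72 to 1.83), and 411 of 509 regions were above 0. A difference of at least 1.5 times was called: 79 regions (15.52%) were higher in dKO, beside 11.2% of all autosomal regions of both lists, and 3 (0.5894%) were lower, beside 14.2%. Counts per covered kb, the density of acetylation inside islands, had a median log2 ratio of −0.02 (−0.04 to 0.01, quartiles −0.18 and 0.13), a value that turned to 0.05 when scaled by regions present in both lists. For density 10 regions were called higher, beside 1.17% of all regions, and 5 lower, beside 4.42%. In pooled bulk samples, acetylation in more cells and more acetylation per cell cannot be told apart. The rule itself asked for 1 dKO island over several WT islands, so nothing is read from these counts of calls.

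The same balance was seen, turned around, in the regions with the opposite pattern, where the median log2 ratio was −0.25 for counts and −0.02 for density. Regions of similar width (10.36 to 44.84 kb) with 1 island in each list had 0.02 and −0.06 (n = 2764). These shared the width range but had a median of 13600 bp (quartiles 11600 and 17600), against 21000 bp in fused regions. Shares of overlap set beside them below are thus not fully matched for width, and wider regions overlap more of any list.

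**Figure D2:**
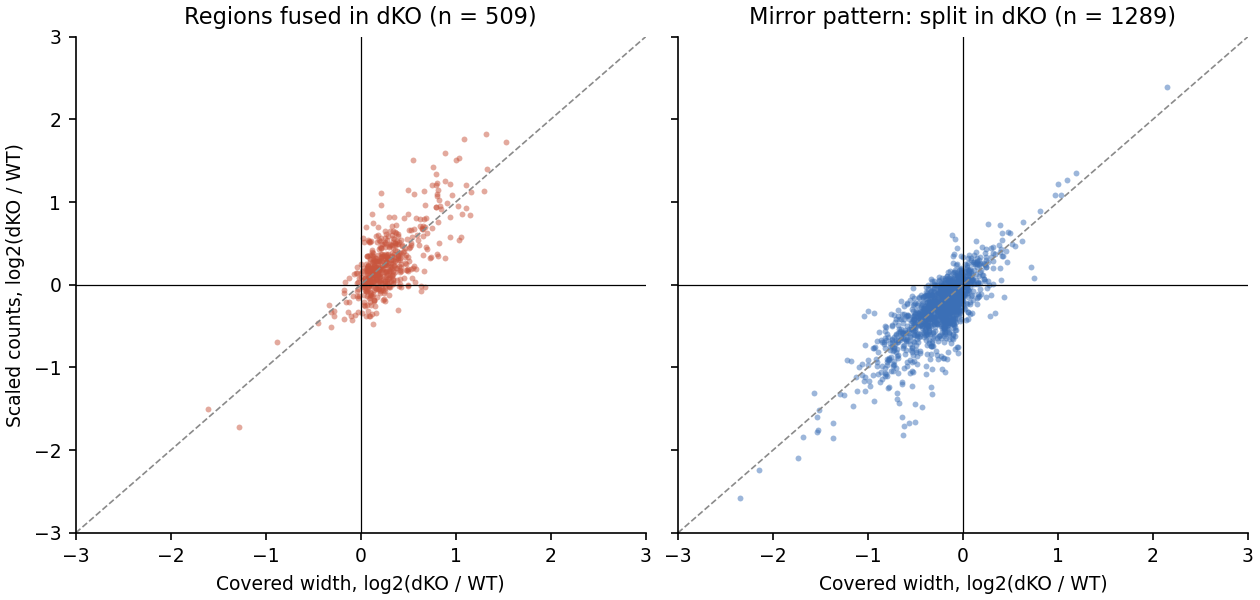
Log2 ratio of scaled counts (dKO to WT) against the log2 ratio of covered width for regions fused in dKO (left, n = 509) and for the opposite pattern (right, n = 1289). Each point is 1 region and the dashed line marks equal ratios, that is, equal density. Fused regions spread up and to the right along the line, with 411 of 509 above 0 in counts.

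Wider gaps went with larger count ratios. Counts were taken in islands only, so reads in a bridged gap count for the dKO island and not for WT. Part of this trend is thus fixed by the rule, and it is given as a description. Regions with all gaps up to 1000 bp had a median log2 ratio of counts of 0.17 and 18 of 282 called higher (6.383%). Those with a widest gap between 1 and 5 kb had 0.27 and 40 of 185 (21.62%), and those with a gap of 5 kb or more had 0.59 and 21 of 42 (50%). Of all autosomal regions of both lists 11.2% were called higher, so the first class lay below that share. Density did not follow, with medians of −0.01, −0.04 and 0.05. At the thresholds of the rule, the widest WT island of a fused region was 29.8 kb, 62 further regions fell outside by width alone, the nearest of them with an island of 30 kb, and 3016 regions with exactly 2 WT islands had a median log2 ratio of counts of 0.09 against 0.18 for the 401 with 3.

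WT islands inside a fused region were uneven. They had a median width of 4.4 kb and 687 counts, and the island with the most counts held a median of 55.65% of the WT counts of its region (quartiles 44.92 and 67.92%). The deepest island of a region had a median of 221.7 counts per kb and the shallowest 128.6, a median ratio of 1.645. At 600-bp gaps of fused regions the shallower neighbour had a median of 135 counts per kb, beside 131.4 at 600-bp WT gaps that no dKO island bridged (n = 6830). In 317 regions 1 island held over 50% of the WT counts, and in 8 regions over 90%. These shares reflect island width as well as depth.

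The region with the most bridged DNA lay over several neighbouring genes. At Ppil1, BC004004, Pi16 and Mtch1 (chr17:29378801-29489200), which include a spliceosomal peptidylprolyl isomerase (Ppil1) and a peptidase inhibitor (Pi16), 6 WT islands over 49.4 kb became 1 dKO island of 110.4 kb. It bridged 49.4 kb, with single gaps of 19400 and 18400 bp. Counts were 11567 in WT and 17507 in dKO, a log2 ratio of 1.12 (1.08 to 1.15), whereas density was at −0.04. Transcription start sites (TSSs) of BC004004 and Mtch1 lay within these gaps, though both genes had another TSS inside a WT island.

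B3gntl1 and Metrnl, the latter coding for a secreted cytokine-like protein, shared a region of 60.8 kb (chr11:121533801-121594600). Its 8 WT islands covered 35.2 kb and ranged from 183 to 2360 counts. Counts were 7016 in WT and 9372 in dKO, a log2 ratio of 0.94 (0.89 to 0.98), and the density ratio was 0.15. A stretch of 14000 bp without a WT island, and another of 5600 bp that held a Metrnl TSS and the C2 site printed above, were both bridged. Metrnl is on the study's list of upregulated genes.

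Hivep3, which encodes a large zinc-finger transcription factor of the Schnurri family, had a pair of fused regions side by side, neither over a promoter. In the wider one (chr4:119498601-119564800), 6 WT islands with 332 to 1600 counts became 1 dKO island, and counts went from 4833 to 10169, a log2 ratio of 1.59 (1.54 to 1.64). In the other (chr4:119565801-119599000), 5 WT islands with 3102 counts faced a dKO island with 6165, a log2 ratio of 1.51 (1.45 to 1.57). Both were also denser in dKO, at 153.6 against 135 counts per kb (0.71) and 185.7 against 137.3 (0.96) before the lists' depths were taken into account. The latter was the highest density ratio of all fused regions.

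**Figure D3:**
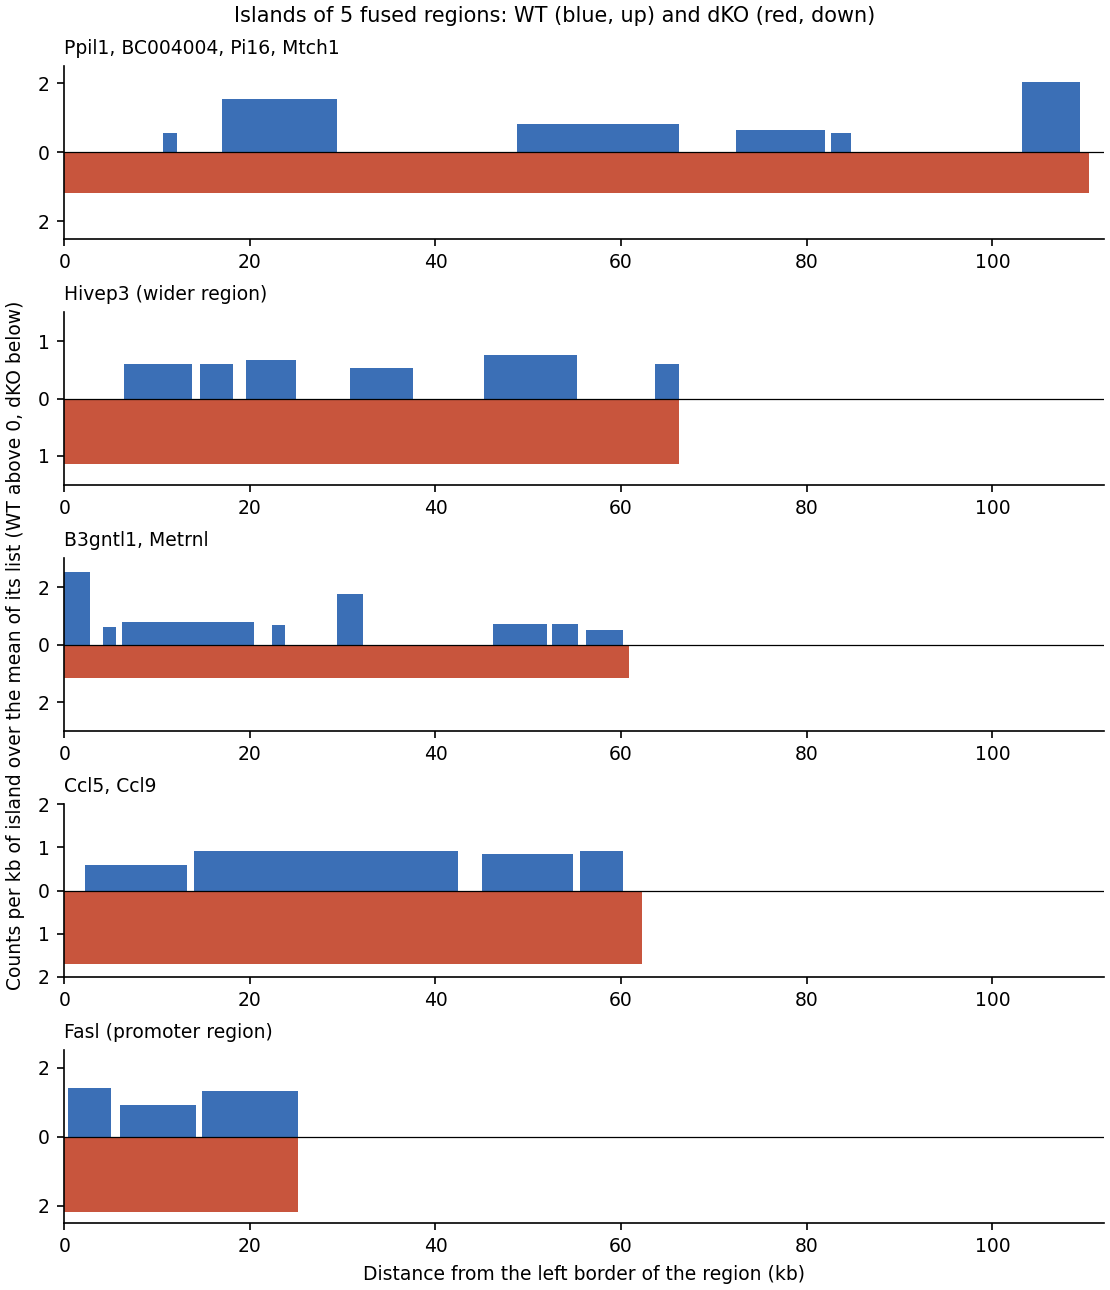
Islands of 5 fused regions drawn to scale, with distance from the left border in kb on the x axis. Height is counts per kb of island over the mean of its own list, WT up in blue and dKO down in red. A single dKO island spans 3 to 8 WT islands and their gaps, and at Hivep3, Ccl5 and Fasl it is also taller than every WT island.

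Other regions with many islands or long bridges ranged widely in their count and density ratios. Nos2, inducible nitric oxide synthase, had 7 WT islands with 5908 counts against 5868 in dKO, a log2 ratio of 0.51 (density 0.25). The 9 WT islands over Ano9, Sigirr, Ptdss2, Pkp3 and B4galnt4, the most in any region, held 16367 counts against 14556 (0.35, density 0.12). At Rabep2, Atp2a1 and Sh2b1, where Atp2a1 encodes the calcium pump of the sarcoplasmic reticulum, a gap of 14200 bp was bridged and counts were 10808 and 11991 (0.67, density 0.03). Myh10, non-muscle myosin IIB, had 6 islands and counts of 4080 and 6596 (1.21, density 0.42), with a TSS in a bridged gap of 10400 bp and none in a WT island. Coro2a, an actin-binding coronin, and Tbc1d2 had 3 islands with 4003 counts against 7509 (1.43, density 0.67). An intergenic region 33730 bp from Laptm4a bridged 16400 bp and went from 4804 to 7426 counts (1.15, density 0.34).

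Several genes of effector and cytotoxic CD8+ T cells lay in fused regions. Of 19 such genes with a region in both lists, from a short list put together for this purpose, 5 overlapped a fused region (Ccl3, Ccl5, Cx3cr1, Fasl and Nkg7; 26.32%, Wilson interval 11.81 to 48.79), beside 4.064% of all 14172 protein-coding genes, and none overlapped a region of the opposite pattern. Ccl3 and Ccl5 lie in the chemokine cluster of chromosome 11, so they are not separate loci. The short list was made with earlier results of these data known, and Ccl3, Ccl5, Cx3cr1 and Fasl are on the study's upregulated list. Nothing is therefore read from the contrast with all protein-coding genes. The study's longer list of effector CD8+ T cell genes was nearer to the background, with 19 of 290 in fused regions (6.552%, 4.234 to 10.01) and 17 in the opposite pattern (5.862%).

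At Ccl5, a chemokine of memory and effector T cells, 4 WT islands with 1368, 5458, 1755 and 896 counts became 1 island of 62.2 kb that also reached Ccl9 (chr11:83324601-83386800). Counts were 9477 in WT and 14276 in dKO, a log2 ratio of 1.11 (1.07 to 1.15), and the density ratio was 0.90. At Ccl3, a macrophage inflammatory chemokine made by activated T cells, 5 islands with 4544 counts faced 5575 in dKO (0.81, density 0.52). All gaps there were 600 or 800 bp wide, and the covered width went from 24.8 to 30.4 kb.

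Fasl, the death ligand of cytotoxic lymphocytes, again had adjoining fused regions. The one at the promoter (chr1:163716001-163741200) had 3 WT islands with 1356, 1583 and 2915 counts, and 5854 counts in WT faced 7395 in dKO (0.86, 0.81 to 0.91; density 0.74). The one over the gene body (chr1:163704601-163715400) had 935 counts in WT and 1853 in dKO (1.51, 1.39 to 1.62; density 0.51) and held the C2 site printed above.

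Cx3cr1, the fractalkine receptor of effector cells, shared a region of 108.8 kb with Ccr8 and Xirp1. Its 6 WT islands held 2028 to 4828 counts each, 19221 in all, against 19426 in dKO (0.53, density 0.45). Nkg7, a cytotoxic granule protein, differed from the other genes of this group: its 4 WT islands held 11072 counts against 8766, with log2 ratios of 0.18 for counts and −0.01 for density.

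**Figure D4:**
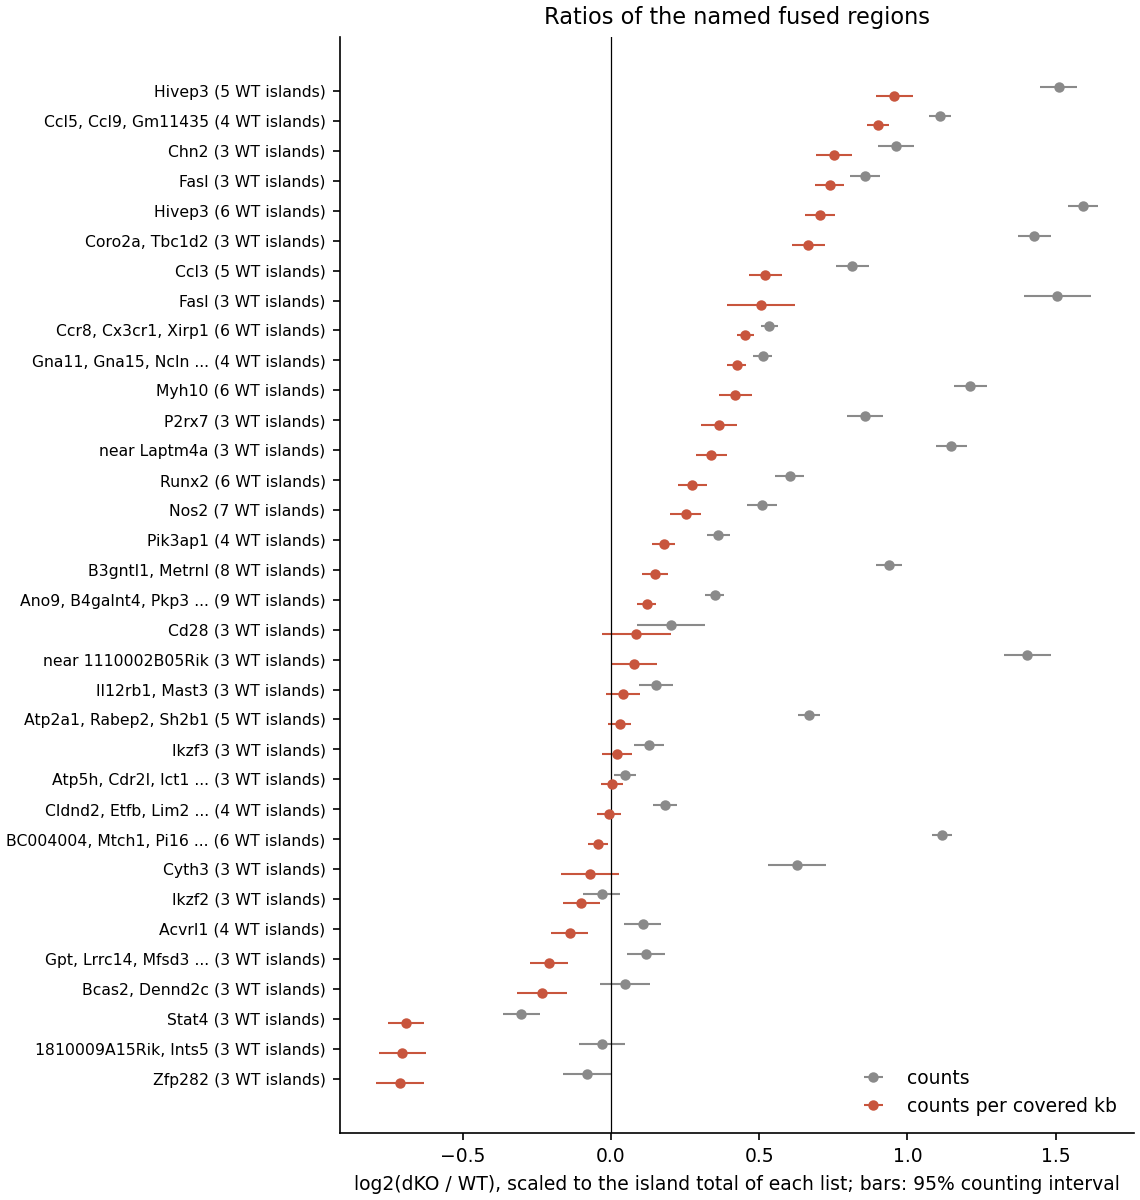
Log2 ratios (dKO to WT) of counts (grey) and of counts per covered kb (red) for the 34 regions named by a stated rule, ordered by density, with 95% counting intervals. Hivep3, Ccl5, Chn2 and Fasl stand at the top and Stat4, Ints5 and Zfp282 at the bottom, with density ratios from 0.96 to −0.71.

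Transcription factors of the Runx, Ikaros and E protein families had 4 of 10 genes in fused regions (Runx1, Runx2, Ikzf2 and Ikzf3) and 4 in regions of the opposite pattern (Gata3, Ikzf2, Tcf12 and Tcf4). Runx2, a Runt factor on the upregulated list, had 6 WT islands inside the gene with 6486 counts against 6877 in dKO (0.60, density 0.27). At Ikzf3 (Aiolos) the 3 islands held 7240 counts against 5521 (0.13, density 0.02), and at Ikzf2 (Helios) 5083 against 3469 (−0.03, density −0.10). Runx2 alone of these was called higher in dKO; Runx1, named outside the rule, had 2451 and 2203 counts (0.37).

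Genes of cytokine signalling and costimulation were joined across short gaps with small count ratios. Of 22 cytokine receptor and signalling genes, 2 overlapped a fused region (Il12rb1 and Stat4). Il12rb1, a subunit of the IL-12 receptor, had 5551 and 4305 counts (0.15). Stat4, the factor that signals from it, had 1 dominant WT island of 5482 counts beside islands of 129 and 144, and its dKO island held 3256 counts in all, a log2 ratio of −0.30 for counts and −0.69 for density. Of 12 costimulatory and inhibitory receptors, Cd28 overlapped a fused region (1360 and 1093 counts, 0.20), and Ctla4 and Tox the opposite pattern.

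Naive and memory genes had 1 of 15 in a fused region (Bcl2) and 3 in the opposite pattern (Bach2, Bcl2 and Foxo1). The anti-apoptotic gene Bcl2 had 12620 counts in WT and 7420 in dKO (−0.25, named outside the rule). None of 21 AP-1, NR4A, EGR, NFAT and IRF genes overlapped a fused region, for which the upper Wilson bound is 15.46%, against 4 in the opposite pattern (Fosb, Irf4, Irf8 and Jun). None of 12 B and myeloid genes did (upper bound 24.25%), against 1 (Syk). With 4.064% of all protein-coding genes in fused regions and 6.351% in the opposite pattern, counts of 0 or 1 in lists this short are near the background.

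The highest and lowest ratios lay at genes of varied function. After the regions of Hivep3 and Ccl5, the highest density ratio was at Chn2, a Rac GTPase-activating protein, with 3742 and 5089 counts (0.96, density 0.75). The lowest were at Zfp282, with 3098 and 2043 counts (−0.08, density −0.71), and at Ints5, a subunit of the Integrator complex, with 3208 and 2192 (−0.03, density −0.70), both at promoters and both followed by Stat4. Named after their values were seen, the highest count ratios were in an intergenic region 90436 bp from Ubl3 (3113 and 7709 counts, 1.83), in another 204596 bp from Maf (1629 and 3859, 1.76) and at Eps15l1 (959 and 2222, 1.73). The 3 regions called lower in counts were in Fhit (1626 and 344, −1.72), near Hif1a (1830 and 450, −1.50) and at Clec2g (801 and 345, −0.70), where the single dKO island covered only part of what the WT islands covered. In 37 of the 509 regions the dKO island covered no more DNA than the WT islands.

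A protein-coding promoter, taken as 1 kb either side of a TSS, lay in 249 fused regions (48.92%, 44.6 to 53.25), against 34.21% of the opposite pattern, 49.96% of single-island regions of similar width and 29.43% of all regions. Another 15.72% touched an exon, 9.234% lay in introns and 26.13% between genes. Promoters of 2 or more genes lay in 92 fused regions (18.07%), beside 4.81% of the opposite pattern and 11.32% of regions of similar width. The bridged gaps themselves were mostly away from promoters, with 38.21% in introns, 42.64% intergenic and 8.085% within a promoter. Of WT gaps in the same width range that no dKO island bridged, 12.54% lay within a promoter. At 600 bp the promoter shares were 6.01% of bridged and 4.568% of unbridged gaps.

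In 30 fused regions a bridged gap held the TSS of a gene, 34 genes in all, named here after their values were seen. A TSS lay in 2.894% of bridged gaps, beside 6.603% of unbridged WT gaps in the same width range. At 600 bp the shares were 1.169% and 0.5417%, with overlapping intervals. For 6 of them, Myh10, Ldlrad3, Klk10, B230314M03Rik, Ly6c1 and Rpl21-ps7, no TSS lay in a WT island. Of the 34, Arid3a (gap of 7200 bp) and Metrnl (5600 bp) are on the upregulated list and none is on the downregulated list. Ldlrad3 is on neither list, though the study named it among genes with elevated expression in dKO.

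Fused regions were spread over the autosomes. Chromosome 11 had the largest share, 59 of 2710 regions (2.177%, 1.692 to 2.798), followed by chromosome 8 with 37 of 1732 (2.136%), and of the regions on those chromosomes 2.731% and 2.771% showed the opposite pattern, beside 2.88% over all autosomes. There were 77 pairs of neighbouring fused regions within 100 kb, and 13 groups of 3 or more, so that members are not all separate loci.

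DNase-seq, Hi-C and RNA-seq lists of the study come from other libraries and were not used by the rule. A C1 ChrAcc site lay in 9 fused regions (1.768%, 0.933 to 3.326), beside 0.3103% of the opposite pattern, 0.6512% of regions of similar width and 0.2304% of all regions. All 9 had a density ratio above 0, with a median of 0.42, and they include both Hivep3 regions, Ccl5, Pik3ap1, a PI3K adaptor with 11823 and 10603 counts (0.36), Gna15, a G protein subunit with 15735 and 15657 (0.51), and an intergenic region 75959 bp from 1110002B05Rik with 1990 and 3677 (1.40). Among all regions with a C1 site 82 of 103 were denser in dKO, and among those of similar width 15 of 18. Of the 18 C1 sites in the 9 fused regions, 17 lay in WT islands and 1 in a bridged gap. Bridged gaps made up 12.26% of the width of fused regions, so few sites would lie in them by length alone. Several of the 18 sites share a region, and they are not separate loci.

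C2 sites lay in 3 fused regions (0.5894%, beside 0.5431% of the opposite pattern, 0.2894% of regions of similar width and 0.1544% of all regions), at Fasl, Metrnl and Pan3, and 2 of the 3 sites fell in a bridged gap. A C3 site, more accessible in dKO and linked to a downregulated gene, lay in 1 region, at P2rx7. C4 sites, less accessible and linked to downregulated genes, lay in 0 of 509 (upper Wilson bound 0.7491%), beside 15 of 1289 of the opposite pattern (1.164%), 0.398% of regions of similar width and 0.1767% of all regions. At the last share a count of 0 among 509 is near the background.

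The study called SEs stronger in one genotype prepotent, on the same H3K27ac libraries, so their overlap with fused regions is not independent. The study describes the SE lists used here as linked to its differentially expressed genes. They may not hold every prepotent SE, and their overlap is not separate from that of the gene lists. SEs prepotent in dKO held 58 fused regions (11.39%, 8.919 to 14.45), beside 2.638% of the opposite pattern, 5.897% of regions of similar width and 3.45% of all regions. Of the 58, 46 were denser in dKO, beside 28 of 34, 106 of 163 and 1065 of 1542 in the same order. SEs prepotent in WT held 8 (1.572%), beside 4.189%, 2.243% and 1.772% in the same order, near the share of all regions, and 1 of the 8 was denser in dKO. Of the 10 regions called higher in density, all but the Fasl promoter region and a region at Adat1 and Gabarapl2 lay in dKO-prepotent SEs of these lists. Hubs, groups of highly interconnected chromatin in Hi-C, that were specific to dKO held 8 fused regions (1.572%, beside 0.4655% of the opposite pattern, 0.5065% of regions of similar width and 0.5079% of all regions), among them those of Ccl3 and Nkg7. Hubs specific to WT held 4 (0.7859%, beside 2.793%, 0.7598% and 0.877%), again near the share of all regions. The hub lists used here were likewise linked by the study to its differentially expressed genes, and may not hold every hub.

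**Figure D5:**
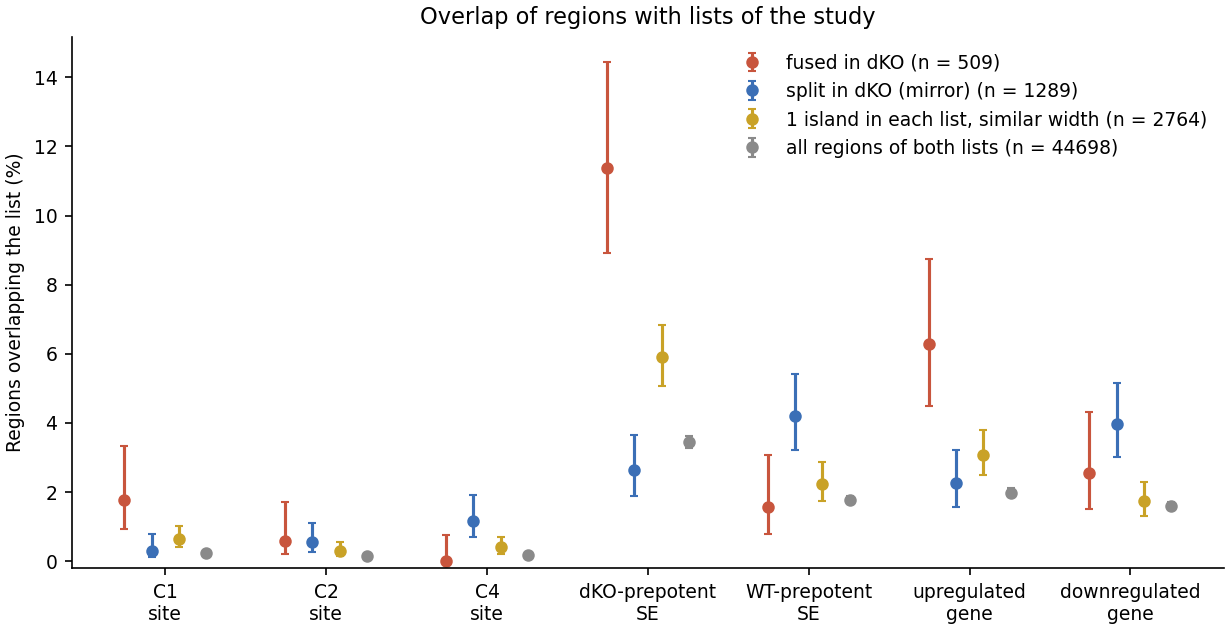
Percent of regions that overlapped ChrAcc sites, SEs and gene bodies of the study's lists, for regions fused in dKO (red, n = 509), the opposite pattern (blue, n = 1289), single-island regions of similar width (yellow, n = 2764) and all regions of both lists (grey, n = 44698), with 95% Wilson intervals. Fused regions lay highest for C1 sites (1.768%), dKO-prepotent SEs (11.39%) and upregulated genes (6.287%).

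Genes upregulated in dKO CD8+ T cells lay under 32 fused regions (6.287%, 4.488 to 8.74), beside 2.25% of the opposite pattern, 3.075% of regions of similar width and 1.978% of all regions. These 32 had a median log2 ratio of 0.51 for counts and 0.15 for density, and 27 were denser in dKO. In the same order of sets, 18 of 29, 55 of 85 and 581 of 884 regions over upregulated genes were denser in dKO. Counted by gene, 28 of 282 upregulated genes with a region in both lists overlapped a fused region (9.929%, 6.959 to 13.98), beside 4.064% of all protein-coding genes (3.752 to 4.402). The opposite pattern overlapped 25 (8.865%, 6.077 to 12.76), beside 6.351% (5.961 to 6.764). For upregulated genes the intervals of both patterns overlapped each other, and that of the opposite pattern overlapped its background. Besides those named above, the 28 genes include Entpd1 (CD39, an ectonucleotidase), Nrp1 (neuropilin-1), Hmox1 (heme oxygenase 1), Pde2a and Unc93b1.

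Genes downregulated in dKO lay under 13 fused regions (2.554%, 1.499 to 4.32), beside 3.957% of the opposite pattern, 1.737% of regions of similar width and 1.593% of all regions. These 13 had a median log2 ratio of 0.19 for counts and −0.06 for density, and 5 were denser in dKO. In the same order of sets, 4 of 51, 19 of 48 and 234 of 712 regions were denser in dKO. By gene it was 12 of 239 (5.021%, 2.895 to 8.57), near the 4.064% of all protein-coding genes, and 46 of 239 in the opposite pattern (19.25%, 14.75 to 24.72), beside 6.351% of all protein-coding genes. P2rx7, an ATP-gated ion channel of naive and memory T cells, went against its listing, with 3924 counts in WT and 4962 in dKO (0.86, density 0.36). The others named here were closer to 0 in counts. Acvrl1, a receptor of the TGF-beta family, had 4674 and 3512 counts (0.11, density −0.14). Gpt, alanine aminotransferase, had 4548 and 3442 (0.12, density −0.21). Dennd2c had 2662 and 1918 (0.05, density −0.23) and Cdr2l 14077 and 10155 (0.05, density 0.01). Cyth3, an ARF exchange factor, had 1611 and 1737 counts (0.63) but a density ratio of −0.07.

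Genes that the study listed as enriched in immune lineages showed no single direction, and are set beside 4.064% of all protein-coding genes in fused regions and 6.351% in the opposite pattern. Fused regions overlapped 9 of 144 pan-T cell genes (6.25%, with Lck, Zap70, Bcl2 and Cd96 among them), against 26 in the opposite pattern (18.06%). For NK cells it was 16 of 206 (7.767%) against 19 (9.223%), for gamma delta T cells 25 of 327 (7.645%) against 28 (8.563%), for Treg cells 9 of 128 (7.031%) against 18 (14.06%), for naive CD8+ T cells 3 of 44 (6.818%) against 4 (9.091%) and for naive CD4+ T cells 2 of 30 (6.667%) against 4 (13.33%). For non-T lineages it was 5 of 224 (2.232%) against 17 (7.589%) in B cells, 25 of 431 (5.8%) against 42 (9.745%) in granulocytes, 13 of 165 (7.879%) against 10 (6.061%) in monocytes, 3 of 160 (1.875%) against 8 (5%) in conventional dendritic cells and 14 of 197 (7.107%) against 19 (9.645%) in plasmacytoid dendritic cells.

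Bridged gaps differed from unbridged gaps in base composition. Their GC content was 45.51%, between the WT islands of the same regions (48.18%) and WT gaps up to the same width that no dKO island bridged (42.7%). The Tcf/Lef core occurred 0.148 times per kb in bridged gaps (Poisson interval 0.130 to 0.168), 0.155 in the WT islands of the same regions and 0.189 in unbridged gaps (0.187 to 0.191). Within gaps of 600 bp, the core was in 7.012% of bridged gaps and 10.89% of unbridged gaps, at 0.125 (0.091 to 0.168) and 0.192 (0.178 to 0.206) per kb. In 600-bp gaps under 40% GC the rates were 0.192 and 0.218 with overlapping intervals, and at 40% GC or more they were 0.087 (0.053 to 0.135) and 0.141 (0.123 to 0.162), again with overlapping intervals. The Tcf/Lef core was thus at a lower rate in bridged than in unbridged 600-bp gaps, and within each class of GC content the intervals overlapped. Matches of core letters are a description and do not show a bound site.

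The other cores were counted in the same way. Per kb of bridged gap, WT island and unbridged gap, the Runx core occurred 0.910, 0.944 and 0.843 times, the Ets core 0.222, 0.297 and 0.238 times, and the AP-1 core 0.290, 0.315 and 0.305 times. In 600-bp gaps, bridged and unbridged, the rates were 0.851 and 0.749 for Runx, 0.173 and 0.194 for Ets, and 0.334 and 0.281 for AP-1. The Poisson intervals of bridged and unbridged 600-bp gaps overlapped for each of these cores, also within each class of GC content.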

How the data were processed

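Libraries of H3K27ac ChIP-seq from both genotypes were sequenced on a HiSeq 2000 by the authors, mapped to mm9 with Bowtie2 v2.2.5, and pooled within each genotype. Islands were called with SICER v1.1 against input (window 200 bp, gap 400 bp, FDR 0.01). The deposited lists give each island's position and its read counts, without normalization. The treatment of duplicate reads was not given in the sources used here. Input samples have no values of their own in the lists and were not analysed.

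Regions, ratios and intervals were computed in Python 3.11.15 with numpy 2.4.6, pandas 2.3.3 and scipy 1.17.1, and tested on simulated data. Counts were scaled by the island total of each list (82668007 and 57665047). Intervals are Wilson for shares, Poisson for rates, from order statistics for medians, and from the normal approximation for log2 count ratios (confidence 95%). Genes, TSSs and bases came from mm9 annotation and sequence. Of the study's gene lists, 302 of 312 upregulated and 250 of 257 downregulated symbols were found. The motif letters were matched exactly on both strands.

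The regions and gene lists were chosen with earlier results of these data known. Regions were named by rule: the 6 with the most WT islands, the 6 with the most bridged bases, up to 8 with a C1, C2 or C4 site, up to 6 each over upregulated and downregulated genes, up to 12 over genes of the immune lists given in the report, and the 3 highest and 3 lowest in density ratio. No test was made, since 1 pooled list per genotype leaves no replicates. The overlap of cytokine signalling genes with the opposite pattern is not reported here.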

Additional observations from a re-analysis of the deposited data

How the results depend on the processing

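No paired analysis was possible because the replicates of each genotype were pooled before deposit, and for the same reason no replicate was left out. The alternative without soft-masked repeats was not run because the genome used here carries no masking.

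The number of fused regions was 3525 with 2 or more WT islands, 108 with 4 or more, 274 with WT islands under 10 kb and 35 with WT islands up to 1 kb apart joined. The number with the opposite pattern was 6628 with 2 or more dKO islands, 318 with 4 or more, 614 with islands of at least 200 counts and 56 with dKO islands joined. In alternatives chosen after seeing the data, it was 536 with both lists joined within 1 kb and 857 with both joined across 600 bp.

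In the same order of rules (2 or more, 4 or more, WT islands joined, both joined within 1 kb, both joined across 600 bp), the median log2 ratio of counts was 0.11, 0.32, 0.60, 0.34 and 0.29, and that of density −0.047, 0.086, 0.053, −0.12 and −0.066. The count ratio was 0.24 with islands under 10 kb, and 0.27 under both other scalings (0.2706 by regions in both lists, 0.2704 by the median ratio). The density ratio was 0.048 by regions in both lists, so its sign is not settled. The median bridged gap was 3000 bp with WT islands joined, 2800 bp with both joined within 1 kb and 1400 bp with both joined across 600 bp. Promoters of all gene types lay in 56.39% of regions. C1 sites inside a gap were in 0.1965% of regions and C3 sites in 0. In 600-bp gaps alone the rates per kb were 0.125 (Tcf/Lef), 0.851 (Runx), 0.173 (Ets) and 0.334 (AP-1). The cause of these shifts was not tested. No direction of the count ratio turned, but all these settings leave WT reads in bridged gaps uncounted.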

Other observations

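On the X chromosome, which the rule leaves out, 1 of 623 regions with islands in both lists showed the fused pattern and 5 showed the opposite pattern.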
